A study of Mus musculus with 3 samples.

Results

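LSD1 chromatin reads were examined at 8 mouse genes on chromosome X that are known to escape X inactivation and that lie on the centromere side of the escape gene Mid1. The genes are Shroom4, Ddx3x, Kdm6a, Eif2s3x, 5530601H04Rik, Pbdc1, Kdm5c and Car5b, of 1256 protein-coding and long noncoding genes that RefSeq places on the chromosome. The members were given by name, and every listed single-base site in the gene or within 5 kb of either end was taken. Chromatin had been pulled down with an antibody to LSD1 (Kdm1a) and sequenced from 3 samples. MidK came from mouse embryonic fibroblasts under reprogramming by SeVdp(fKOSMaB), a Sendai virus vector, at day 20 with 30 nM Shield1, a small molecule that keeps destabilised fusion proteins from being degraded. LowK was the same at day 20 without Shield1, and MEF was the fibroblasts at day 0, without vector. The labels do not say which protein Shield1 stabilises or whether animals were pooled. Each group holds 1 library, so no difference below has a replicate check and no p-value was computed. The labels give neither the sex of the fibroblasts nor the strain that carries the variant base, and LSD1 reads do not measure expression, so the labelled cell types were not checked here.

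LSD1 is a demethylase of histone H3 that is found with corepressor complexes and also at active promoters and enhancers. In female mouse cells most genes of 1 X chromosome are silenced through the noncoding RNA Xist, and a small set, the escape genes, continues to be transcribed from both copies. Among the members, Kdm6a and Kdm5c encode histone demethylases, Ddx3x a DEAD-box RNA helicase and Eif2s3x the gamma subunit of a translation initiation factor, and each of these genes has a partner on the Y chromosome. Car5b encodes a mitochondrial carbonic anhydrase, Shroom4 an actin-associated protein, and 5530601H04Rik is a long noncoding RNA gene next to the protein-coding gene Pbdc1.

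The start windows of 4 members, described further on, differed in read share between LowK and MEF, and Kdm5c shared a short motif with one of them, so these 5 promoters are shown. The sequences are from RefSeq (GRCm38.p6, the build called mm10), run 5′ to 3′ on the gene's strand, and cover 250 bases before the annotated start and 50 from it onwards. That start lies 526 bp inside the annotated gene edge at Ddx3x and 1713 bp inside it at Kdm6a. Capitals mark the bases at which at least 1 library listed a single-base variant.
Ddx3x, chrX:13280772-13281071, + strand: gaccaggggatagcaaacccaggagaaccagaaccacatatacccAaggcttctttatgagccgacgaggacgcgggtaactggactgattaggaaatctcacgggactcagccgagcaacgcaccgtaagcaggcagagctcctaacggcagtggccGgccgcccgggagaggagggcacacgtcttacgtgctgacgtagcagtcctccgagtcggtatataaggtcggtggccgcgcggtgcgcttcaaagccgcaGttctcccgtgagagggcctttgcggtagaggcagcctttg
Eif2s3x, chrX:94212602-94212901, - strand: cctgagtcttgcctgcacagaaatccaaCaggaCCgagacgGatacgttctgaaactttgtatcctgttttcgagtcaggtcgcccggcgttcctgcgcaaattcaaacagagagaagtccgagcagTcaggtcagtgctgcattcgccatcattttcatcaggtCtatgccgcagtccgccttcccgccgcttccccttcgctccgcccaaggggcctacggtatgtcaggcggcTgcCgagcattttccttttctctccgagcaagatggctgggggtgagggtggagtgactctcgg
Kdm6a, chrX:18162325-18162624, + strand: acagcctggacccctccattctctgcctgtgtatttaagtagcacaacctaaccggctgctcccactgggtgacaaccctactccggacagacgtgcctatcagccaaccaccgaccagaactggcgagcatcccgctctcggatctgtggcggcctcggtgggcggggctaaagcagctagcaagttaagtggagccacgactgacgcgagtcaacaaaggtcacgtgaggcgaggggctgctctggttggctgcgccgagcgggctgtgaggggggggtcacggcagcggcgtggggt
5530601H04Rik, chrX:105070075-105070374, - strand: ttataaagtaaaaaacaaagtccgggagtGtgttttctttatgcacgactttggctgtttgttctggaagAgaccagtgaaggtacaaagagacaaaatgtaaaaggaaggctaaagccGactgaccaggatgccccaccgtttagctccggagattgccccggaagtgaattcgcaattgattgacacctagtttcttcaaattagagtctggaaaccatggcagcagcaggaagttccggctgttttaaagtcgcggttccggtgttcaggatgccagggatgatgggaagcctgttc
Kdm5c, chrX:152232977-152233276, + strand: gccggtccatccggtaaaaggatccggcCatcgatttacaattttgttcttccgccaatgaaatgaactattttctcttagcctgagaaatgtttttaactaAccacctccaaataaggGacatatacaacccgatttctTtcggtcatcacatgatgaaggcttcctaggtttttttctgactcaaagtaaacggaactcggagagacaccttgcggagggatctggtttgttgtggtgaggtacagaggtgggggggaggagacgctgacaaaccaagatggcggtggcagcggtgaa
The B6 base of the lists was the RefSeq base at all 365 MidK, 981 LowK and 1098 MEF sites that lay in any promoter entry of the chromosome. Counted from base 1 at the 5′ end, the Eif2s3x promoter held 0 listed bases in MidK, 8 in LowK and 1 in MEF. At T128A, LowK had 4 B6 and 5 variant reads. At C166A, LowK had 2 B6 and 2 variant reads, and MEF had 1 B6 and 4 variant reads. The Ddx3x promoter had 3 listed bases in LowK, with 1 B6 and 4 variant reads at G260A, and at A46C LowK had 1 B6 and 3 variant reads, against 0 and 1 in MEF. No base of the Kdm6a promoter was listed in any library; its listed sites began outside these 300 bases.

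The promoters of the members were richer in CpG than most on the chromosome. The ratio of observed to expected CpG had a median of 0.752 over the 8 members (0.438 in Car5b to 1.10 in Pbdc1), against 0.361 over the 1046 genes with a promoter entry, and the GC content had medians of 58.5% and 50.7%. Searched on both strands, the GC box letters GGGCGG were present in 6 of 8 member promoters and in 33.4% of all. The letters CCAAT were in 2 of 8 and in 46.5% of all, and the E-box letters CACGTG in 1 of 8 (Kdm6a) and in 9.0% of all. The letters AAGATGGC, the core of the motif of the zinc finger protein YY1, were found in the Eif2s3x promoter from base 266 and in the Kdm5c promoter from base 278, and in 3.35% of all promoters. GGGNGTGG, as bound by KLF-family factors, was in 1 of 8 (Car5b) and in 18.7% of all. These motifs can overlap by a few bases and are descriptions of letters only.

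The lists held 203350 MidK, 295254 LowK and 883097 MEF reads by allele at 119257, 186844 and 411952 single-base sites, at 1.71, 1.58 and 2.14 reads per site. A position was listed only where a variant read had been seen, so chromatin fragments with the B6 base alone are missing, and a window without listed reads can still have held LSD1 fragments. A read can also be counted at several neighbouring sites. Intervals are exact 95% intervals that cover counting error only, and for this reason they are too narrow. The 8 windows together held 793 reads at 469 sites in MidK, 1510 at 894 in LowK and 4062 at 1800 in MEF, which is 0.390%, 0.511% and 0.460% of the library reads. Of these sites, 73.3%, 63.8% and 45.3% had a single read. Reads from a related copy cannot be told apart from those of a member, so values of the genes with a Y partner, and of Eif2s3x, which has a pseudogene elsewhere, are uncertain. The Shroom4 window contains the noncoding gene 5430428K19Rik, the Car5b window overlaps Gm38561 and the Pbdc1 window overlaps Magee1, whose reads are included. The windows of 5530601H04Rik and Pbdc1 share 394 bases, with 0 listed reads in MidK, 0 in LowK and 8 in MEF.

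Read density was set beside the length of each window. Reads were counted only at listed sites, so density also depends on how many variants a gene carries, which was not corrected for. Ddx3x (X:13280496 to 13293988) and Eif2s3x (X:94188709 to 94212651) were the densest members in both day 20 libraries. Ddx3x had 0.134 reads per 10000 library reads and kb in MidK (95% interval 0.103 to 0.171), 0.160 in LowK (0.132 to 0.193) and 0.115 in MEF (0.101 to 0.131). Eif2s3x had 0.113 in MidK (0.0893 to 0.141), 0.182 in LowK (0.156 to 0.210) and 0.0887 in MEF (0.0784 to 0.100). In LowK these 2 genes stood apart from the third, 5530601H04Rik, by intervals that did not overlap. 5530601H04Rik (X:105040854 to 105070124) had 0.0801 in MidK (0.0617 to 0.102), 0.103 in LowK (0.0858 to 0.124) and 0.127 in MEF (0.115 to 0.139), where it was the densest member.

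Kdm6a (X:18160862 to 18279936) had the lowest density of the 8 in each library, with 0.0328 in MidK (0.0262 to 0.0405), 0.0449 in LowK (0.0384 to 0.0521) and 0.0521 in MEF (0.0480 to 0.0565). Its interval lay apart from that of the next gene, Shroom4 (X:6399949 to 6637454), in each of the 3 libraries. All other neighbours in the order overlapped, except Ddx3x and 5530601H04Rik in LowK. Among all 1256 windows Ddx3x stood at percentile 95.6 in MidK, 91.2 in LowK and 94.4 in MEF, and Kdm6a at 29.3, 26.0 and 26.5. Shroom4 stood at 49.1, 46.5 and 38.6. These long genes thus lay below the middle of the chromosome's range, and the median gene had 0.0492, 0.0688 and 0.0696 reads per 10000 and kb. The median gene of MidK lies low, and ratios between libraries below are therefore given relative to the median gene.

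**Figure D1:**
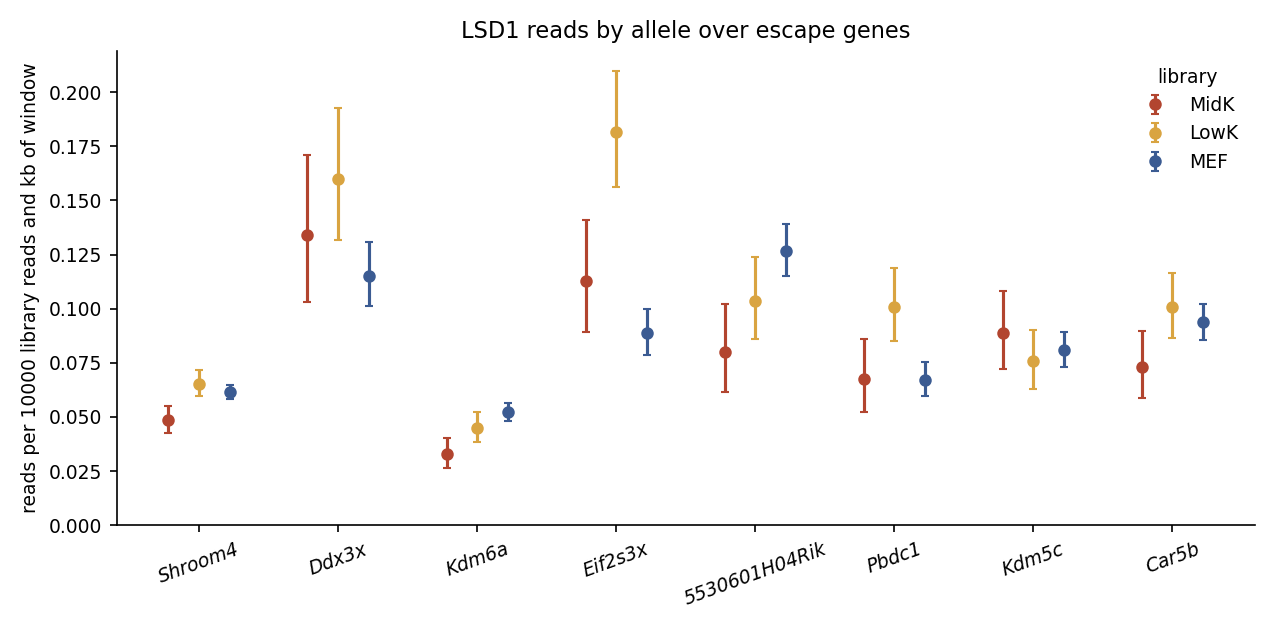
LSD1 reads by allele per 10000 library reads and per kb of window (vertical axis) at each member gene, for the MidK, LowK and MEF libraries; points are single libraries and bars are exact 95% Poisson intervals. Ddx3x and Eif2s3x are the highest in MidK and LowK, 5530601H04Rik is the highest in MEF, and Kdm6a is the lowest in each library.

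LowK, without Shield1, was compared with MEF over whole gene windows. A gene was called when its share of reads, relative to the median gene, differed at least 2-fold, the Poisson intervals did not overlap and 1 of both libraries had at least 30 reads. No member was called, 0 of 8, while 13.6% of the 1080 tested genes of the chromosome were. Eif2s3x came nearest to the threshold. It had 182 reads in LowK and 266 in MEF, or 6.16 (5.30 to 7.13) and 3.01 (2.66 to 3.40) per 10000, so that the intervals lay apart, and its ratio was 1.93 (1.59 to 2.34). With library totals in place of the median gene, which shifts log2 ratios by 0.09, Eif2s3x was called, 1 of 8, with a background of 15.2%.

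Pbdc1, with 141 reads in LowK and 281 in MEF, had a ratio of 1.41 (1.15 to 1.74). Ddx3x, with 111 and 239 reads, had 1.31 (1.03 to 1.64). The demethylase genes lay below 1, Kdm6a at 0.811 (0.680 to 0.963; 171 reads in LowK and 594 in MEF) and Kdm5c at 0.882 (0.716 to 1.08; 125 and 399 reads). 5530601H04Rik had the lowest ratio, 0.768 (0.622 to 0.942), with 120 reads in LowK and 440 in MEF. Shroom4 (478 and 1345 reads) and Car5b (182 and 506 reads) had ratios of 1.001 and 1.01. The median log2 ratio of the 8 genes was 0.01. That of all tested genes was also 0.01 to 2 decimals, a value that the scaling to the median gene sets in advance.

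For MidK, with Shield1, over MEF, the whole windows were compared in the same way. Again no member was called, 0 of 8, with a background of 19.4% of 1080 genes, or 25.7% with library totals. The highest ratio was that of Eif2s3x, 1.73 (1.33 to 2.23), from 78 reads in MidK and 266 in MEF. Ddx3x followed with 1.58 (1.18 to 2.09; 64 and 239 reads) and Kdm5c with 1.49 (1.19 to 1.86; 101 and 399 reads). Pbdc1, with 65 reads in MidK, had 1.36 (1.03 to 1.79). Relative to the median gene, the intervals of these 4 ratios lay above 1. With library totals all 4 intervals included 1. The Ddx3x ratio, 0.66 on the log2 scale, was -0.06 with 1 site per 300 bp and 0.00 without the deepest 1% of sites, and that of Kdm5c, 0.58, was 0.04 with 1 site per 300 bp. Kdm6a (86 and 594 reads) and 5530601H04Rik (64 and 440 reads) had 0.854 (0.673 to 1.07) and 0.858 (0.650 to 1.12), and Shroom4 (244 and 1345) and Car5b (91 and 506) 1.07 and 1.06. The median log2 ratio was 0.27 over the members and 0.01 over all tested genes, the latter set by the scaling. With library totals, which shift log2 ratios by -0.44, the members' median was -0.17, so its sign depends on the scaling.

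MidK was then compared with LowK, from which Shield1 was left out. No member was called, 0 of 8, with a background of 20.6% of 906 genes, or 31.8% with library totals. Relative to the median gene, Kdm5c had the largest difference, a ratio of 1.73 (1.32 to 2.26), from 101 reads in MidK and 125 in LowK. With library totals the interval of this ratio included 1. With 1 site per 300 bp the Kdm5c ratio was 0.25 on the log2 scale, against 0.79 with all sites. The other 7 ratios, also relative to the median gene, ran from 0.916 in Eif2s3x to 1.23 in Ddx3x, each with an interval that included 1. The median log2 ratio was 0.12 over the members and 0.00 over all tested genes, the latter set by the scaling. It was -0.44 over the members with library totals, which shift log2 ratios by -0.56.

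**Figure D2:**
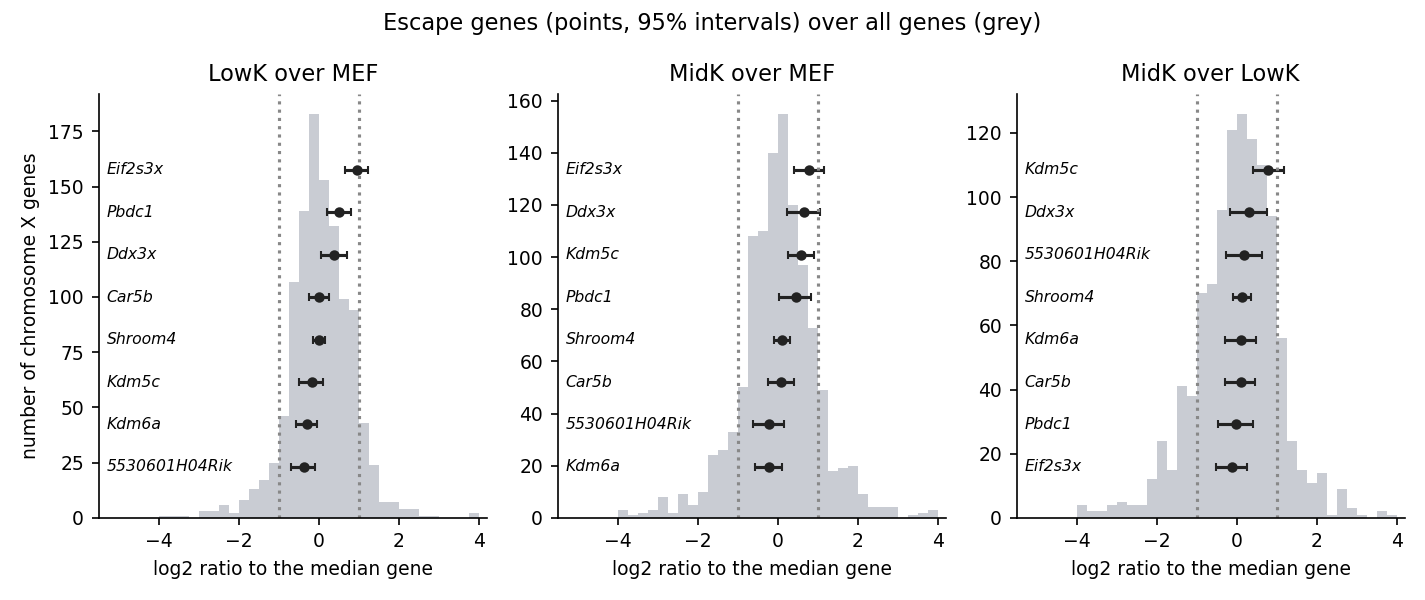
Log2 ratios of read shares relative to the median gene (horizontal axis) for LowK over MEF, MidK over MEF and MidK over LowK; grey bars count all chromosome X genes (values beyond 4 on either side are drawn at 4), points are the 8 members with 95% intervals, and dotted lines mark 2-fold. All points lie between the lines in each comparison, with Eif2s3x at 0.95 the highest in LowK over MEF.

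The other escape genes of the chromosome gave 1 call of 8 in LowK over MEF, 4933407K13Rik (ratio 2.44), 2 in MidK over MEF, Mid1 (2.28) higher and Jpx (0.320) lower, and 1 in MidK over LowK, Mid1 (2.87). Their median log2 ratios were 0.03, 0.12 and -0.28. Of 20 genes subject to inactivation, 1 was called in LowK over MEF, the filamin gene Flna (2.06), 1 in MidK over MEF, the cohesin gene Smc1a (0.235), and 3 in MidK over LowK, Ids, G6pdx and Smc1a (0.436, 0.356 and 0.290), with medians of 0.03, -0.08 and 0.02. Of 5 other X-linked genes with a Y partner, Sox3 was called in LowK over MEF (2.49), none in MidK over MEF, and Rbmx (0.398) and Sox3 (0.169) in MidK over LowK. The nearest genes on both sides of each member whose windows do not overlap that of the member, 15 in all, gave 0 calls in LowK over MEF. Gm34661, beside Ddx3x, and Klhl15, beside Eif2s3x, were called in MidK over MEF, and these and Gm52430, beside Kdm5c, in MidK over LowK, of 14 tested. In the plane of the ratios of LowK and MidK over MEF, the gene nearest to Shroom4 among 544 was the member Car5b (distance 0.02 on the log2 scale), that nearest to Kdm6a was Rragb (0.01) and that nearest to Car5b was Prkx (0.02); each rests on 2 ratios that share the MEF library.

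Reads near the annotated start were examined next, a measure chosen after the values were seen. Within 2 kb on both sides of the start, Ddx3x had the most reads of the members in each library, and the others ranged down to 0 reads in MidK. Ddx3x had 53 reads at 9 sites in MidK, 80 at 25 in LowK and 84 at 19 in MEF, or 2.61 (1.95 to 3.41), 2.71 (2.15 to 3.37) and 0.951 (0.759 to 1.18) per 10000. Both day 20 libraries were higher than MEF, with intervals apart. This was 82.8% of all reads of the Ddx3x window in MidK, 72.1% in LowK and 35.1% in MEF, from 17.0% of its length. In MidK, 41 of the reads fell in the step of 500 bp that begins 500 bp after the start, and the deepest site there had 10 reads. Neighbouring sites can share reads, so the number of fragments behind this value is not known.

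Eif2s3x had 0 reads in its start window in MidK, 64 at 20 sites in LowK and 49 at 17 in MEF. The MidK interval reaches up to 0.181 per 10000, while LowK had 2.17 (1.67 to 2.77) and MEF 0.555 (0.410 to 0.734). A set floor of 3 reads, or 0.148 per 10000, is used for MidK in fold values below and lies under that upper bound. The remaining 78 MidK reads of the gene lay elsewhere in the window. Kdm6a had 11 reads in MidK, 56 in LowK and 36 in MEF, or 0.541 (0.270 to 0.968), 1.90 (1.43 to 2.46) and 0.408 (0.286 to 0.564) per 10000. LowK was thus highest at Kdm6a, and the MidK and MEF intervals overlapped. In LowK, 22 of these reads lay in the 500 bp before the start. Shroom4 had 16, 42 and 76 reads and overlapping intervals between LowK (1.03 to 1.92) and MEF (0.678 to 1.08).

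The other 4 members had few reads near their start in the day 20 libraries. Car5b had 1 in MidK, 12 in LowK and 70 in MEF; 5530601H04Rik had 4, 3 and 39. Kdm5c had 5, 15 and 56, and Pbdc1 3, 19 and 33. MEF is the deepest library, so shares per 10000 reads differ from these counts. In the same order, Car5b had 0.0492, 0.406 and 0.793 per 10000, and 5530601H04Rik 0.197, 0.102 and 0.442. Kdm5c had 0.246, 0.508 and 0.634, and Pbdc1 0.148, 0.644 and 0.374. Pbdc1 was thus higher in LowK than in MEF, with overlapping intervals. Summed over the 8 genes, the 1 kb before the start held 6 reads in MidK, 142 in LowK and 95 in MEF, and the 1 kb from the start onwards 75, 99 and 145, in the same order. Per gene this was 0.0369, 0.601 and 0.134 reads per 10000 before the start and 0.461, 0.419 and 0.205 after it. Over all 1046 genes with an annotated start the means were 0.0697, 0.149 and 0.0783 before it and 0.138, 0.204 and 0.0821 after it. By allele, the Ddx3x start window held 20 B6 and 33 variant reads in MidK, 16 and 64 in LowK and 36 and 48 in MEF. That of Kdm6a held 6 and 5 in MidK, 27 and 29 in LowK, and 11 and 25 in MEF, and that of Eif2s3x 18 and 46 in LowK and 3 and 46 in MEF. Every listed site carries a variant read by construction, so these sums do not give an allele ratio. The LowK reads of the members before the start came mainly from Eif2s3x, Kdm6a and Ddx3x, and the MidK reads after it from Ddx3x, Shroom4 and Kdm6a.

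**Figure D3:**
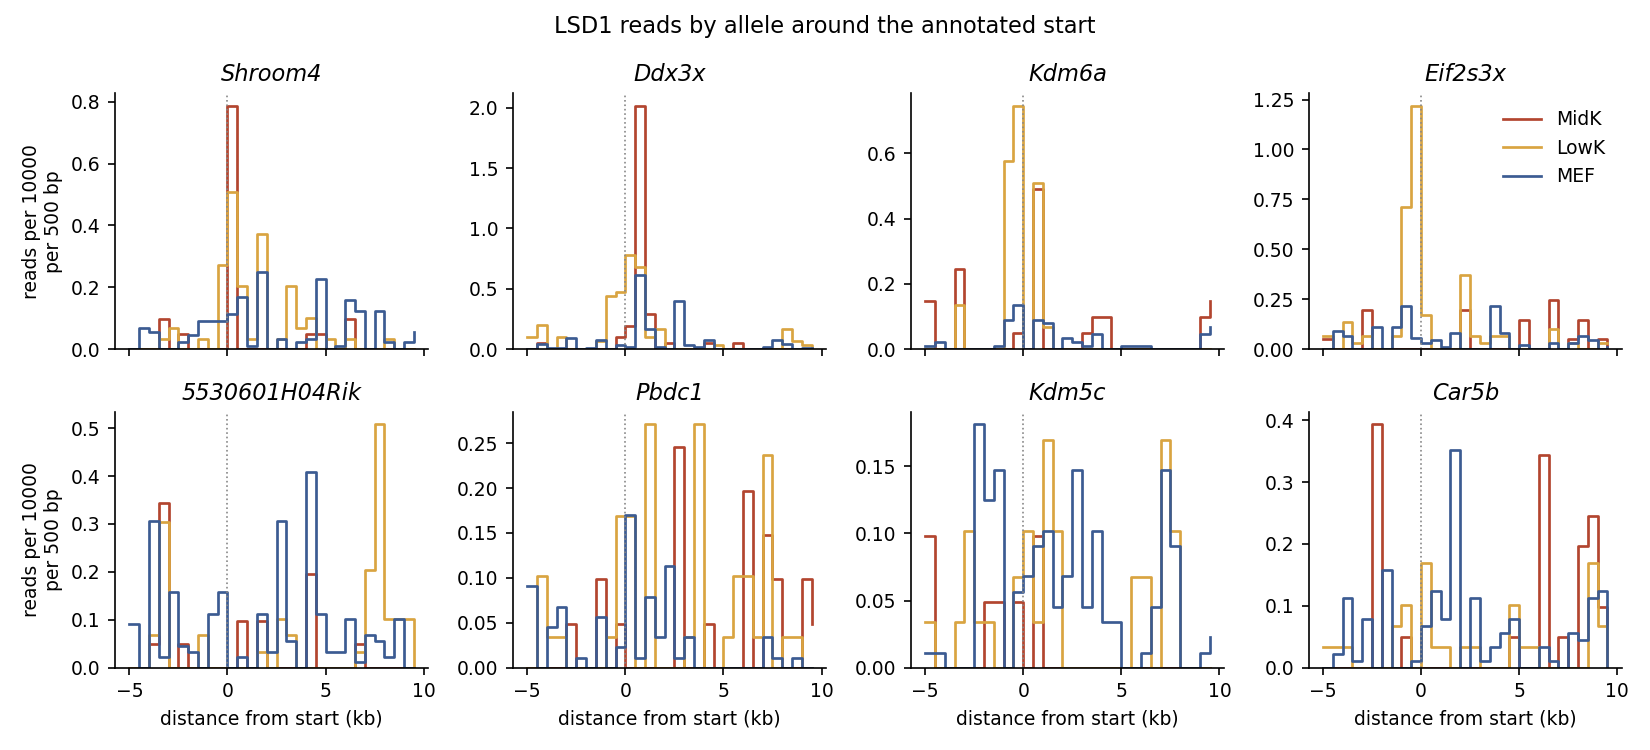
LSD1 reads by allele per 10000 library reads in steps of 500 bp (vertical axis, scaled per gene) against distance from the annotated start in kb, in the direction of transcription, for each member; lines are the MidK, LowK and MEF libraries. Ddx3x peaks just after the start in MidK at 2.02, and Eif2s3x just before it in LowK at 1.22, where MidK has no listed read.

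**Figure D4:**
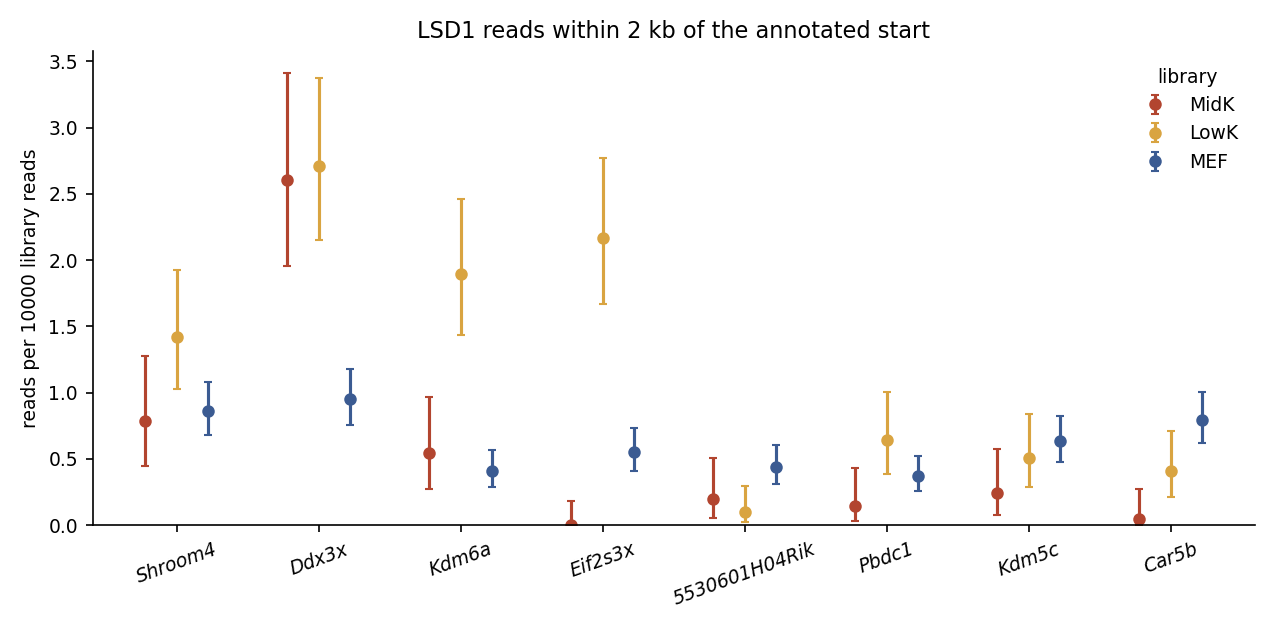
LSD1 reads by allele per 10000 library reads within 2 kb of the annotated start (vertical axis) for each member in the MidK, LowK and MEF libraries, with exact 95% Poisson intervals. LowK is highest at Kdm6a and Eif2s3x, both day 20 libraries are above MEF at Ddx3x, and Eif2s3x is at 0 in MidK.

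By the same rule as for whole windows, 4 of 8 start windows were called in LowK over MEF, against 42% of the 424 tested start windows of the chromosome, so the share among the members was near the background. Kdm6a was 4.38-fold higher (2.83 to 6.86), Eif2s3x 3.68-fold (2.50 to 5.45) and Ddx3x 2.68-fold (1.95 to 3.69), and 5530601H04Rik was lower (0.217, 0.0428 to 0.681). By direction, 3 of 8 were higher, with a background of 31.8%, and 1 lower, with 10.1%. 5530601H04Rik reached the 30 reads in MEF only, which favours a lower call. Start windows in general took a larger share of LowK reads, the median one being 0.57 higher on the log2 scale than the median gene. Relative to the median start window, Kdm6a (log2 1.56) and Eif2s3x (1.31) were still called higher, Ddx3x (0.85) was not, and Car5b (-1.62) joined 5530601H04Rik as lower; the background was then 17.9% higher and 19.8% lower. With 1 site per 300 bp no member was called: Kdm6a and Ddx3x both had 20 LowK and 27 MEF reads, at 0.87 on the log2 scale, and Eif2s3x had 15 and 17, at 1.13. After this thinning Shroom4 alone reached the 30 reads needed, so the other 7 members could not be called.

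In MidK over MEF, 3 of 8 start windows were called, against 25.3% of 396. Only Ddx3x reached 30 reads in MidK. The other members were tested through their MEF reads, which favours lower calls, and the background rests on the same filter. Ddx3x was 3.72-fold higher (2.59 to 5.31), Car5b lower (0.0843, 0.00210 to 0.485; 1 read in MidK), and Eif2s3x, with 0 reads in MidK, lower (0, 0 to 0.461). A floor of 3 reads in MidK would put Eif2s3x 2.77-fold lower at the MEF point value. By direction, the background was 12.6% higher and 12.6% lower, and relative to the median start window 18.4% and 5.81%; the same 3 windows were then called, with Eif2s3x at 0 (0 to 0.665). Within 5 kb of the start neither Eif2s3x (log2 -0.90) nor Car5b (-0.98) was called, while Kdm5c was called lower and Kdm6a higher. With 1 site per 300 bp, Ddx3x had 11 reads in MidK and 27 in MEF, at 0.87 on the log2 scale, too few to be tested. In MidK over LowK only 4 members had enough reads. All but Ddx3x of these reached 30 reads in LowK only, which again favours lower calls. Eif2s3x was lower in MidK (0, 0 to 0.127; 9.98-fold with MidK at the floor and LowK at its point value) and so was Kdm6a (0.420, 0.198 to 0.810), 2 of 4, against 44.4% of 151 called in either direction, 6.62% higher and 37.7% lower. Ddx3x (1.42, 0.981 to 2.03) and Shroom4 (0.814, 0.427 to 1.48) were not called. Relative to the median start window, which lies 1.09 below the median gene on the log2 scale, Kdm6a (-0.17) was no longer called, Ddx3x (1.59) was called higher and Eif2s3x lower (0, 0 to 0.269), with a background of 25.8% higher and 12.6% lower. In MidK over LowK the Eif2s3x call was kept in each of the other settings in which it had enough reads. Of these, only the window of 5 kb could add MidK reads.

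Within a library, the start window can be set against the rest of the same gene window, which needs no scaling between libraries. Reads were counted only at listed sites, so this comparison also depends on how many variants each stretch carries, which was not corrected for. Reads were denser at the start, by at least 2-fold with intervals apart, in 3 of 8 members in MidK, against 23.1% of the 484 tested genes. The count was 4 of 8 in LowK, against 34.4% of 750, and 5 of 8 in MEF, against 12.9% of 914. The 3 in MidK were Ddx3x (23.5-fold), Kdm6a (4.58-fold) and Shroom4 (4.27-fold). The 4 in LowK were Kdm6a (15.2-fold), Ddx3x (12.6-fold), Shroom4 (5.86-fold) and Eif2s3x (4.06-fold). In MEF these were Shroom4 (3.64-fold), Ddx3x (2.64-fold), Car5b (2.29-fold), Kdm5c (2.12-fold) and Kdm6a (2.02-fold). Of the other escape genes 0 of 7, 1 of 8 and 0 of 8 were denser at the start, and of the genes subject to inactivation 4 of 14, 11 of 17 and 5 of 17. When the sites were thinned to 1 per 300 bp, the 4 LowK members were still denser, while 0 were in MidK and 3 in MEF, namely Shroom4, Kdm6a and Kdm5c. Without the deepest 1% of sites Ddx3x was no longer denser at the start in MidK or MEF. The share over all genes was not computed with thinned sites or without the deepest sites. The counts of members in those settings therefore have no background. Reads were sparser at the start in Eif2s3x in MidK and in 5530601H04Rik in LowK (0.226-fold), 1 of 8 each, and in 0 of 8 in MEF, with backgrounds of 9.3%, 7.07% and 11.6%.

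The alleles were compared at sites that had 2 or more B6 reads, 2 or more variant reads and 5 to 20 in all, 1 per 300 bp, by the share of sites with more variant than B6 reads. Over the 8 genes MidK had such a majority at 33.3% of 21 sites (exact Clopper-Pearson interval 14.6% to 57.0%). LowK had it at 33.3% of 15 sites (11.8% to 61.6%), and MEF at 55.2% of 58 sites (41.5% to 68.3%). These intervals overlap, so a difference in allele majority between the libraries was not detectable at this depth. The rest of the chromosome had 23.2% of 3036 sites in MidK, 45.4% of 1812 in LowK and 48.4% of 11496 in MEF, each within the members' interval. Shroom4 gave 2 of 6 sites in MidK, 2 of 4 in LowK and 10 of 15 in MEF. Eif2s3x gave 1 of 5, 0 of 3 and 3 of 6, while Car5b had a variant majority at 3 of 3 sites in MidK and 4 of 8 in MEF. The numbers per gene allow no comparison between genes. With a reliability of at least 20 the shares were 62.5% of 8 sites, 75% of 8 and 64.6% of 48, higher than without the filter in each library. Whether the score itself depends on the number of variant reads was not tested. With that and so few sites, the filtered shares do not decide the order of the libraries.

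**Figure D5:**
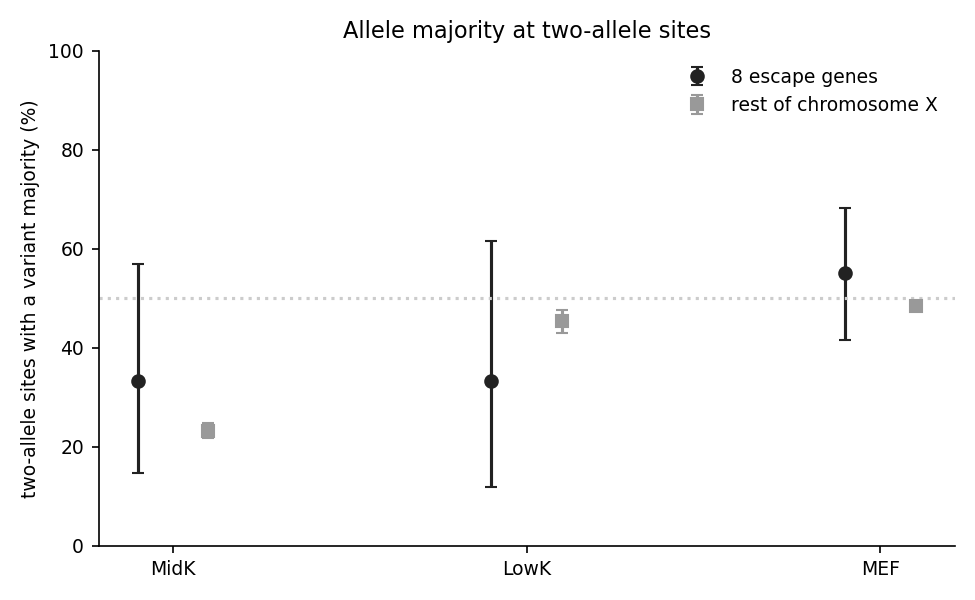
Percent of sites read on both alleles that have more variant than B6 reads (vertical axis) in the 8 escape genes and in the rest of chromosome X, for the MidK, LowK and MEF libraries, with exact 95% Clopper-Pearson intervals. The members' intervals include the value of the rest of the chromosome in each library.

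B6 reads were seen at 14.7% of the members' sites in MidK (11.6% to 18.2%), 11.1% in LowK (9.09% to 13.3%) and 20.8% in MEF (19.0% to 22.8%). The rest of the chromosome had 15.3%, 9.60% and 17.4%, and only in MEF did the intervals lie apart, where the members also had more reads per site, 2.26 against 2.14. Within MidK the share was highest at Ddx3x (30%, 6 of 20 sites) and lowest at 5530601H04Rik (6.98%, 3 of 43 sites). LowK had 26.8% at Ddx3x and 24.7% at Eif2s3x, and 4.32% at Car5b. In MEF it was highest at 5530601H04Rik (34.9%), Ddx3x (32%) and Kdm5c (29.4%) and lowest at Kdm6a (15.8%). A site with more reads is more likely to show a B6 read, and reads per site differed between these genes. They were 3.2 at Ddx3x and 1.49 at 5530601H04Rik in MidK, and 2.71 at Ddx3x and 1.31 at Car5b in LowK. In MEF they were 2.95 at 5530601H04Rik and 1.92 at Kdm6a. The shares were not adjusted for depth, and its part in these differences was not tested.

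Few sites recurred between libraries. The members' lists shared 186 sites between LowK and MEF, 20.8% of the LowK and 10.3% of the MEF sites, 99 between MidK and MEF (21.1% and 5.50%) and 59 between MidK and LowK (12.6% and 6.60%). Over the chromosome the shares were 20.3% and 9.22%, 16.7% and 4.82%, and 9.53% and 6.08%. Just 23 member sites were listed in all 3 libraries. Of these, 7 were in Ddx3x and 7 in Car5b, 4 in Shroom4, 2 in Kdm6a, 2 in Pbdc1 and 1 in 5530601H04Rik, with none in Eif2s3x or Kdm5c. The deepest lay close together in the Ddx3x gene body, after the start. At X:13281811, with B6 base T and variant C, MidK had 4 B6 and 5 variant reads, LowK 3 and 3, and MEF 7 and 5. At X:13281815, with B6 base C and variant T, MidK had 5 and 5, LowK 3 and 3, and MEF 6 and 4. At X:13281722, also C and T, MidK had 3 and 5, LowK 0 and 3, and MEF 7 and 7. Both alleles were thus read in MidK and MEF at each of these sites, and in LowK at the first 2. The sites are close enough to share reads, so they need not be separate observations. At X:13281815 the depth was 13 in MidK, 8 in LowK and 11 in MEF, so some reads there counted for neither allele. At X:13281811 it was 12, 6 and 12, above the reads by allele in MidK only.

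At X:13281755 MidK had 3 B6 and 5 variant reads, LowK 1 and 4, and MEF 6 and 2. At X:13281482 MidK had 2 and 2, LowK 2 and 9, and MEF 0 and 2; this was the deepest member site of LowK with reads of both alleles. The 2 sites of Kdm6a near its start were listed in all 3 libraries. At X:18162155, 420 bp before the annotated start, MidK had 0 B6 and 1 variant read, LowK 3 and 2, and MEF 4 and 7. At X:18163210 MidK had 2 and 2, LowK 1 and 2, and MEF 3 and 4. The deepest Shroom4 site, X:6400491, had 2 and 3 reads in MidK, 2 and 4 in LowK and 0 and 1 in MEF. Transitions (A to G, C to T and their reverses) made up 65.5% of the members' sites in MidK, 64.9% in LowK and 64.6% in MEF, against 59.6%, 61.9% and 61.8% in the rest of the chromosome.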

How the data were processed

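LSD1 ChIP libraries of mouse cells were analysed for chromosome X. The submitters' processing notes name BWA and the build mm10, and variants were called with bcftools mpileup, per the series' design text. How duplicate reads and weak calls were handled is not given in the sources used here. Per the file headers, the authors' lists hold counts of the depth and of B6 and variant reads for every position with a variant call. They also hold a deposited score, reliability, which served in alternatives only; in the MidK file its column carries another prefix than the rest. Single-base sites were kept; other entries were 5.56% of the MidK, 6.13% of the LowK and 6.97% of the MEF list. Reads by allele are B6 plus variant reads.

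Gene windows (the gene and 5 kb beyond each end) and starts came from RefSeq tables of GRCm38.p6. Reads per 10000 were compared by size, as stated in the report, with exact Poisson intervals and ratio intervals from the conditional binomial, in Python 3.11.15 with scipy 1.17.1. The rule was tested on simulated independent Poisson counts. These lack the reads counted at several neighbouring sites, so the test does not cover false calls from that source. Every member, the listed neighbours and like genes were named by rule; the start windows and their alternatives were chosen after seeing the data. The members and gene lists were chosen with earlier results of these data known. All 8 members had at least 30 reads in every library.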

Additional observations from a re-analysis of the deposited data

How the results depend on the processing

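No paired analysis was possible because each group holds 1 library. Over whole windows, no called member in each comparison became 1 with library totals (Eif2s3x) and 2 with a reliability of at least 20 (Ddx3x and Eif2s3x) in LowK over MEF, where 15.2% and 28.5% of all genes were called. In MidK over MEF it became 1 after thinning to 1 site per 300 bp (Eif2s3x, log2 1.09; 6.06% of all genes called), 1 in the gene body alone (Ddx3x; 17.4%) and 1 with a reliability of at least 20 (Ddx3x; 31.9%), and in MidK over LowK 1 with that reliability (Kdm5c; 35.4%). In the other settings it stayed at 0, and sites listed in all 3 libraries left 1 testable member. In LowK over MEF, 4.99% of 942 genes were called with 1 site per 300 bp, and 0.18% of 557 with each counted once. A count of 0 members in those settings is thus near the background. At the start windows, the 4 calls of LowK over MEF became 0 after thinning to 1 site per 300 bp, which left 1 testable member. They became 3 within 1 kb and 3 without the deepest 1% of sites, without 5530601H04Rik (65.1% and 36.6% of all start windows called), 5 with a reliability of at least 20, with Shroom4 added (60.3%), and within 5 kb 4, with Car5b in place of Ddx3x (25.3%). The 3 of MidK over MEF became 1 within 1 kb (Ddx3x; 38.2%), 0 of 1 testable with 1 site per 300 bp and 1 with a reliability of at least 20 (Ddx3x; 21.5%). Within 5 kb they were Ddx3x, Kdm5c and Kdm6a, without Car5b and Eif2s3x (25.4%). The 2 of MidK over LowK became 1 within 1 kb (43.9%), 1 within 5 kb (30.8%) and 1 without the deepest 1% of sites (47.0%), Eif2s3x in each. Start windows with each such site counted once, and with 1 site per 300 bp in MidK over LowK, gave no value because no member reached 30 reads. Denser starts fell to 0 in MidK after thinning to 1 site per 300 bp and 0 with each counted once, to 1 in LowK with each counted once, and in MEF to 3, 0 and, without the deepest 1% of sites, 3. For denser starts the share over all genes was not computed in these settings. A reliability of at least 20 moved the variant majority to 62.5% in MidK and 75% in LowK; the other 4 settings stayed within the reported interval in all 3 libraries. No called start window changed sign. Eif2s3x had 0 MidK reads in its start window, and only the window of 5 kb could add any. Its unchanged sign in the other MidK settings is therefore no check. Over whole windows no member was called with the main settings, so no change of sign could be counted there. The uncalled Ddx3x ratio of MidK over MEF did change sign with 1 site per 300 bp. Of 162 ratios of single members over whole windows under alternatives, 101 stayed within the interval of the reported value, as did 101 of 136 ratios of start windows; the cause of the changes was not tested. At 1.58 to 2.14 reads per site, depth limits each value.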
